A study of Mus musculus with 17 samples.

Results

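In the colon of WT mice, 2 days of DSS in the drinking water were compared with day 0, before DSS. DSS (dextran sodium sulfate, given at 2.5%) is a polymer that damages the colonic epithelium. The members were the 3 WT samples of day 2 and the 3 WT samples of day 0, chosen by their titles, 6 of 17 samples in the series. WT mice were Cre- and on a C57BL/6J background, and the mice of day 0 had received no DSS. The series also holds CD4cre mice (PPAR γ flfl; CD4Cre+), in which a Cre driven by the CD4-Cre promoter deletes PPAR γ from CD4+ and CD8+ T cells, on days 0, 2 and 7, and WT mice on day 7. The age and sex of the mice and the time of day at which they were killed are not given in the sources used here. It is not stated either whether an array held RNA of 1 mouse, so the p-values measure a spread between arrays, which may be partly technical. The fit took that spread from all 17 samples of the series, not from the 6 members alone.

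The lining of the colon is renewed from the bottom of the crypts, where stem cells and their daughters divide under Wnt signals, and dividing cells switch on genes of DNA replication first and genes of mitosis later. The mucosa holds lymphoid follicles rich in B cells, which the chemokine Cxcl13 attracts, and its cells run a circadian clock in which Clock and Arntl drive the Per and Cry genes, whose products repress them in turn. Hox genes are expressed in an order along the gut, with the high-numbered groups toward the rectum.

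Values were gcRMA signals on the log2 scale from Mouse 430 2.0 arrays, so a difference of 1 is a doubling of signal. A probe set was called at a limma adjusted p under 0.05 (Benjamini-Hochberg over 45037 probe sets). A level under 3.50 was read as background. Of the single values of probe sets of genes that belong to other tissues, pooled over all 17 samples, 95% lay below that level. Between 48.6% and 49.3% of the probe sets were above background in each of the 6 samples. Lists of genes were read with 1 probe set per gene, and 2 groups did not overlap where all 3 samples of one were above all 3 of the other. Precision is limited by the small number of arrays. The epithelial marker Epcam was between 13.66 and 14.08 in all 6 samples, and the smooth muscle marker Tagln between 13.43 and 14.13, although the label gives colonic mucosa.

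The 6 samples also differed in ways that DSS does not name. A Hox position score set 8 high-numbered Hox genes (9 to 13) against 8 low-numbered ones (1 to 8) as a difference of means, so that a higher score lies nearer to the rectum. It was 1.67, 1.60 and 1.32 in the WT day 2 samples, against -1.12, 0.40 and -0.95 in the WT day 0 samples. The groups did not overlap (difference 2.09, exact permutation test, two-sided p = 0.1, the smallest that 3 against 3 samples allow). Day 0 replicate 2 lay nearest to day 2. Over the Hox genes above background in every sample the difference was only 0.49, and day 0 replicate 2 then had the highest score of the 6 samples (1.54). Position along the colon and the day of DSS therefore cannot be told apart in full. Genes of pancreatic enzymes had a median of 12.4 in day 2 replicate 2 and of at most 2.71 in the other 5 samples.

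Of the 45037 probe sets, 202 (0.449%) were called between WT day 2 and WT day 0, 113 higher (0.251%) and 89 lower (0.198%), and they stand for 169 named genes. At an unadjusted p under 0.05 there were 4323 (9.6%). In all 202 the groups did not overlap, which their choice by a small p-value on the same values favours. Of all probe sets, 6.59% lay higher without overlap and 10.2% lay lower. The median log2 fold change was 0.91 among those called higher and -1.21 among those called lower. With the Hox position score as a covariate 5 calls were left (1 higher and 4 lower), and among the 35 called probe sets that the rule for named genes picked only that of Ckap2l remained, while all 202 probe sets kept their sign, with medians of 0.73 and -1.09. Leaving out 1 of the 6 samples gave 37 calls (without WT day 2 replicate 1) to 131 (without WT day 0 replicate 2). Of the same 35 probe sets 8 were called in every such run, those of Per2, Csnk1d, Ddit4, Ckap2l, Stmn1, Hnrnph1, Gm6958 and 1 of the 2 of Ms4a1.

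Genes of mitosis were lower in the WT day 2 samples. All 43 measured members of the list were above background, and in all 43 each day 2 sample was below each day 0 sample, against 14.2% of the 11504 genes above background. Of the 43, 15 fell by the test and none rose (0.469% of these genes were called lower, and 0.297% of all 18193 genes), and the median log2 fold change was -1.69, against -0.0025 over these genes. The mean over the list was 5.94 to 6.49 in the day 2 samples and 7.80 to 8.15 in the day 0 samples. In such bulk samples fewer dividing cells and less RNA per cell cannot be told apart.

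The largest falls among them were in genes of the kinetochore and the spindle. Cenpf, a kinetochore protein made in late cell cycle, was 5.64, 6.30 and 5.14 in the day 2 samples, against 8.44, 8.21 and 8.31 on day 0, and fell by 2.63 (SE 0.40, limma adjusted p = 0.027). Cenpe, the kinesin that links kinetochores to microtubules, was 5.12, 5.92 and 4.58 on day 2 and 7.47, 7.79 and 7.92 on day 0. Aspm, a protein of the spindle poles, was 4.76, 5.69 and 3.87 on day 2 and 7.23, 7.63 and 7.06 on day 0. In these 3 genes day 2 replicate 2 was the highest of the day 2 samples and still lay more than 1 below the day 0 values. Ttk, a kinase of the spindle checkpoint, had a mean at background on day 2 (2.96, 3.42 and 2.80), against 5.78, 6.24 and 5.15 on day 0, and was at least 4.68-fold lower (adjusted p = 0.0361).
Racgap1, which acts in cytokinesis, fell by 2.21 and Cenpa, the histone of centromeres, by 2.16. Ube2c and Cdc20, which act with the anaphase-promoting complex, fell by 1.91 and 1.48, and the kinase Plk1 by 1.81. The proliferation marker Mki67 was 8.81, 9.31 and 8.28 on day 2 and 10.36, 10.76 and 10.91 on day 0, and fell by 1.88 (SE 0.34, adjusted p = 0.0424). Outside the list, Ckap2l, a spindle protein, had one of the smallest p-values (5.18, 5.23 and 5.09 on day 2 and 6.56, 6.57 and 6.49 on day 0, fell by 1.37, SE 0.13, adjusted p = 0.00274), and so did Stmn1, which destabilizes microtubules (6.62, 6.69 and 6.61 on day 2 and 7.98, 7.93 and 7.56 on day 0, adjusted p = 0.00768). The largest fall of any called gene was in Gm6958, known here only by its annotation (4.68, 5.36 and 3.74 on day 2 and 8.39, 8.13 and 8.93 on day 0, fell by 3.89, SE 0.46, adjusted p = 0.0116).

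The median difference of the mitosis list was -1.87 against day 0 replicate 2 alone and -1.62 against the other 2 day 0 samples. Replicate 2 is 1 sample, with a Hox score of 0.40, or 1.54 over the Hox genes above background in every sample. The part of position along the colon in this fall was not tested. With the Hox score as a covariate the median was -1.59 and no member was called. The count of members called was 0 to 4 when 1 of the 6 samples was left out, 1 without both WT day 2 replicate 2 and WT day 0 replicate 2, and 36 when low values were filtered, with medians from -1.82 to -1.53 over these runs. So the direction and the size were steady over these settings and the number of calls was not.

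**Figure D1:**
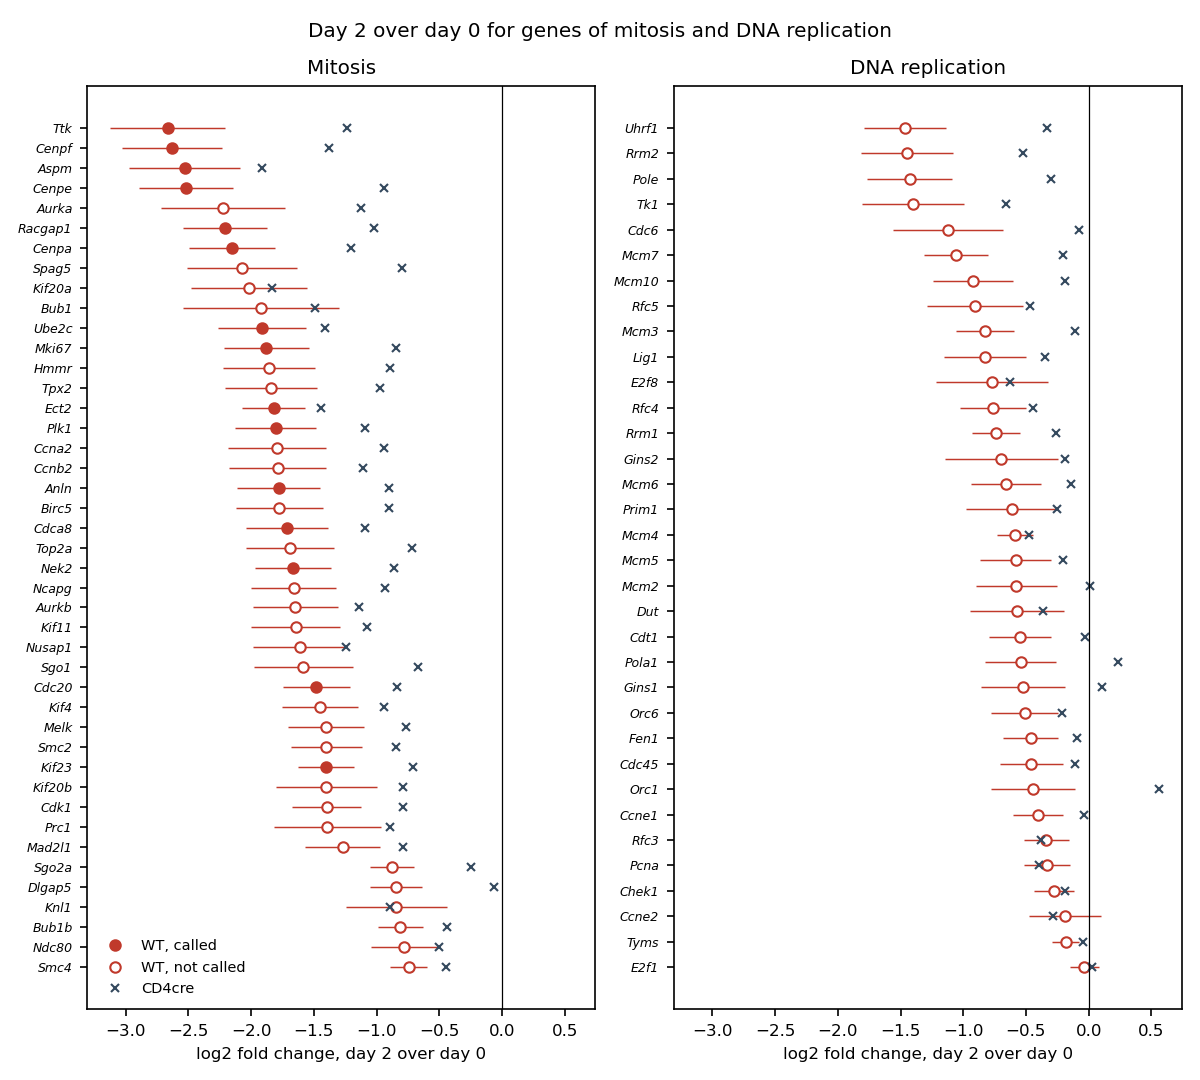
Log2 fold change of day 2 over day 0 (horizontal axis) for each measured gene of mitosis (left, 43 genes) and of DNA replication (right, 34 genes). Red circles are WT mice with the standard error of the fit, filled where called, and crosses are CD4cre mice (n = 3 samples a group). All 43 genes of mitosis lie below 0 in both genotypes, with medians of -1.69 in WT and -0.91 in CD4cre mice.

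Promoters of the mitosis genes are shown because these genes moved together. Many such genes carry a CHR element (TTTGAA) at the start site with a CCAAT box upstream, through which repressor and activator complexes are known to time their expression. In the RefSeq promoters (250 bases before to 50 after the start site, GRCm38.p6, either strand, each motif searched on its own, so that matches may share bases), the CHR letters TTTGAA, or the complement, were found in 28 of the 37 mitosis genes with a promoter in the table, against 20.2% of 27025 genes. They were found in 4 of 29 genes of DNA replication. CCAAT, or its complement, was in 29 of 37 and 17 of 29, against 41.1% of genes. Both motifs in 1 promoter were found in 24 of 37, against 7.97%, and a TTTGAA within 20 bases of the start site in 17 of 37, against 2.62%. Of the 15 called members, all with a promoter, 12 held both. A match describes the letters and is not a bound site. The 4 with the largest falls that held both are Ttk at chr9:83834439-83834738 (plus strand), Cenpf at chr1:189688037-189688336 (minus strand), Aspm at chr1:139454523-139454822 (plus strand) and Racgap1 at chr15:99651607-99651906 (minus strand), with both motifs in capitals.
Ttk: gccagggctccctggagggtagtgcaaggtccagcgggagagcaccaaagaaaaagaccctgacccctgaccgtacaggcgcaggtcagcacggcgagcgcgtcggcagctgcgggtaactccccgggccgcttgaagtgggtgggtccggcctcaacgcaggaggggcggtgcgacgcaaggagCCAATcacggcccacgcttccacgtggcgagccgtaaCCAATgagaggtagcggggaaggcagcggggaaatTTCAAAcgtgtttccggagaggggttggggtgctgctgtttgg
Cenpf: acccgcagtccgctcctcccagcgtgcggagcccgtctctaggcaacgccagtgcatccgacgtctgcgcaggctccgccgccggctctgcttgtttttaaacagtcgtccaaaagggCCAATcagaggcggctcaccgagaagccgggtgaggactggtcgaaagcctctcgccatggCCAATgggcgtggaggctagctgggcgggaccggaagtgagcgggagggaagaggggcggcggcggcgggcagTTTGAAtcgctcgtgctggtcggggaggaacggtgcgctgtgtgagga
Aspm: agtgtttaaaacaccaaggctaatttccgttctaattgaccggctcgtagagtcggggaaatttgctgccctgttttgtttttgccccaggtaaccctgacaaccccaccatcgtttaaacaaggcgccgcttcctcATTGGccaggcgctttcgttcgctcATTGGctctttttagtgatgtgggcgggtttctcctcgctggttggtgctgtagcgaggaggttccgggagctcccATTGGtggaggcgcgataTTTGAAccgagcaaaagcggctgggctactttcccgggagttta
Racgap1: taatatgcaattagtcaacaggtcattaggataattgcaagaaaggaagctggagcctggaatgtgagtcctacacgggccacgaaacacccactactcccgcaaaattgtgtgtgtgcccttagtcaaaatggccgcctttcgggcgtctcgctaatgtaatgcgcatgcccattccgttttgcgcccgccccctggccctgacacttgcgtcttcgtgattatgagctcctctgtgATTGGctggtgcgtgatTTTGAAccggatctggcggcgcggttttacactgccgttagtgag
In these 4 promoters the first base of the TTTGAA match lies 7, 2, 6 and 5 bases after the start site, in the order printed.

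Genes of DNA replication moved less. All 34 measured members were lower on day 2 by their fold change, 25 without overlap of the groups (14.2% of genes above background), and none was called with the probe set of the list, with a median of -0.58 and members from -1.47 to -0.03. Uhrf1, which keeps DNA methylation through replication, was 5.62, 6.46 and 5.99 on day 2 and 7.49, 7.25 and 7.73 on day 0 (log2 fold change -1.47, SE 0.33, adjusted p = 0.0787). Its second probe set was called, with a mean at background on day 2 (at least 1.51-fold lower, adjusted p = 0.047). For the DNA polymerase subunit Pole it was -1.43 (adjusted p = 0.099). Another probe set of the helicase subunit Mcm7 was called as well (7.65, 7.80 and 7.66 on day 2 and 8.68, 8.80 and 8.73 on day 0, adjusted p = 0.0348), while that of the list was not (adjusted p = 0.101). Pcna, the clamp of the replication fork, was at -0.33 (adjusted p = 0.649). Among genes of crypt stem cells and Wnt signals 1 of 18 was called (0.469% of genes above background were called lower, and 0.297% of all genes). Of the 16 above background 10 lay lower without overlap, against 14.2% of genes. The called gene was Axin2, a target and brake of Wnt signals. It fell to 4.64, 4.50 and 4.67 on day 2, against 6.57, 6.39 and 5.85 on day 0 (by 1.66, SE 0.24, adjusted p = 0.0201). Its call was lost without WT day 0 replicate 1, WT day 2 replicate 1 or WT day 2 replicate 2. The stem cell marker Lgr5 was 3.81, 4.66 and 3.82 on day 2 and 7.11, 6.00 and 4.68 on day 0, and did not pass the test (log2 fold change -1.83, SE 0.59, adjusted p = 0.261).

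Clock genes of the repressing limb were higher on day 2. Of 9 such genes above background 6 lay higher without overlap and 1 lower, against 14.5% and 14.2% of genes above background. Of all 10 measured, 2 rose (0.669% of genes above background were called higher). Per2 was 8.58, 8.54 and 8.82 in the WT day 2 samples, against 5.02, 4.97 and 5.04 on day 0 with replicates close together on each day, and it rose by 3.64 (SE 0.32, adjusted p = 0.00245). This was among the smallest p-values of the comparison. Per3 was 5.17, 5.17 and 5.75 on day 2 and had a mean at background on day 0 (3.37, 3.20 and 3.37), a rise of at least 3.65-fold (adjusted p = 0.035). That call was lost when any 1 of the 6 samples was left out. None of the other probe sets of Per3 was called, with log2 fold changes from -0.02 to 0.39 and group means of at most 3.89. The other probe sets of Per2 were not called either (0.99 and 0.73, without overlap, group means of at most 3.77). Per1 was 5.96, 6.11 and 5.69 on day 2 and 4.82, 4.77 and 4.83 on day 0, without overlap but not called (log2 fold change 1.12, SE 0.34, adjusted p = 0.225).
The other repressors differed less and none of them was called. Bhlhe40, which represses at the same DNA sites, was 10.53, 10.43 and 10.75 on day 2 and 9.85, 9.57 and 9.65 on day 0 (log2 fold change 0.88, adjusted p = 0.0701). Cry2 and Cry1 had log2 fold changes of 0.80 (adjusted p = 0.12) and 0.69 (adjusted p = 0.5), both without overlap. Nr1d2 and Ciart had 0.34 and 0.72, with overlap, and Bhlhe41 was at background. Nr1d1, which represses Arntl, went the other way at levels near background (2.14, 2.28 and 2.31 on day 2 and 4.40, 2.70 and 3.62 on day 0, adjusted p = 0.173).

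The list of clock output had 8 measured genes, and it also held Csnk1d and Csnk1e, kinases of Per proteins rather than output genes. All 8 had positive fold changes, and 5 lay higher without overlap, against 14.5% of genes above background. Of the 8, 2 rose (0.669% of genes above background were called higher). Tef, a transcription factor under clock control, was 8.90, 9.27 and 9.51 on day 2 and 8.20, 7.25 and 8.13 on day 0 (log2 fold change 1.37, SE 0.26, adjusted p = 0.0477), a call that ended when any 1 of the 6 samples was left out. Csnk1d, a kinase that phosphorylates Per proteins, was 11.12, 10.99 and 11.04 on day 2 and 10.54, 10.67 and 10.57 on day 0 (log2 fold change 0.45, SE 0.06, adjusted p = 0.0142). The other 4 probe sets of Csnk1d were not called and ranged from 0.00 to 0.47. Usp2, Hlf and Wee1 had log2 fold changes of 1.26, 0.79 and 0.46 without overlap and without a call, and Dbp, Nfil3 and Csnk1e had 0.16, 0.04 and 0.26 with overlap. None of the 4 activators was called. Npas2, a partner of Arntl, was 5.37, 4.13 and 4.30 on day 2 and 5.78, 6.69 and 6.03 on day 0 (log2 fold change -1.57, SE 0.39, adjusted p = 0.119). Arntl, Clock and Rora had -0.39, -0.02 and -0.22, with overlap. The hour of sampling and the day of DSS cannot be told apart here, since the hour is not given.

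**Figure D2:**
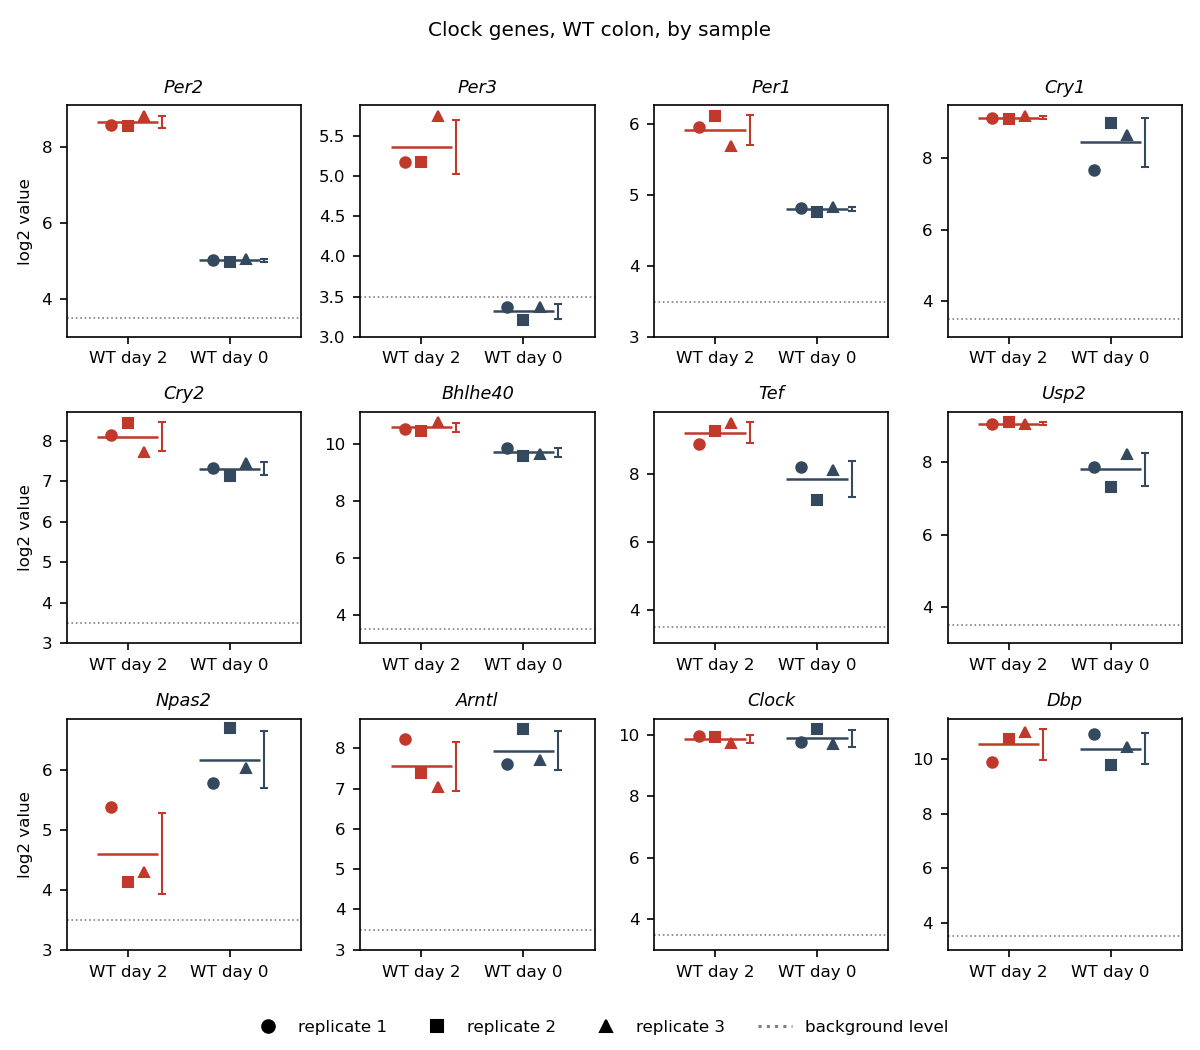
Log2 value (vertical axis, own scale in each panel) of 12 clock genes in the 3 WT day 2 samples (red, left) and the 3 WT day 0 samples (blue, right). Symbols are replicates, horizontal lines group means, bars at their right 1 SD, and the dotted line the background level of 3.50. Per2 lies between 8.54 and 8.82 on day 2 and between 4.97 and 5.04 on day 0.

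Per and Cry promoters are known for E-boxes (CACGTG, its own complement), which Clock and Arntl bind. CACGTG was found in 4 of the 8 repressor genes with a promoter in the table, against 8.09% of 27025 genes. It was found in 1 of 6 genes of the list of clock output and Per kinases. The promoters of Per2 and Bhlhe40 were not in the table. Those of Per1 at chr11:69098699-69098998 (plus strand), Cry1 at chr10:85185005-85185304 (minus strand) and Tef at chr15:81802423-81802722 (plus strand) are shown as the ones with a match among the genes whose groups did not overlap, with CACGTG in capitals. Per1 and Tef have 2 start sites in the table, and the one with a match is given.
Per1: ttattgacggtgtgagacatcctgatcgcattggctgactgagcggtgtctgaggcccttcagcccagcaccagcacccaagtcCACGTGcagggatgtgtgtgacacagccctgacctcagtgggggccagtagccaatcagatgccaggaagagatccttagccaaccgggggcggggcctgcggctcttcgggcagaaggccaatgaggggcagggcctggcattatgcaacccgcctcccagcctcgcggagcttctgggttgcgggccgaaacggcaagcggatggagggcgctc
Cry1: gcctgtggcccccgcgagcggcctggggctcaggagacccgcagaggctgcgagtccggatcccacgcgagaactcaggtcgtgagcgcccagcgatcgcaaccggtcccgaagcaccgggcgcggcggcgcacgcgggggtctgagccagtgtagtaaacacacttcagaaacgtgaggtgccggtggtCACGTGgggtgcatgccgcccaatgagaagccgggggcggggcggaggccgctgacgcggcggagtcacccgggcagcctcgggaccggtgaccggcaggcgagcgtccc
Tef: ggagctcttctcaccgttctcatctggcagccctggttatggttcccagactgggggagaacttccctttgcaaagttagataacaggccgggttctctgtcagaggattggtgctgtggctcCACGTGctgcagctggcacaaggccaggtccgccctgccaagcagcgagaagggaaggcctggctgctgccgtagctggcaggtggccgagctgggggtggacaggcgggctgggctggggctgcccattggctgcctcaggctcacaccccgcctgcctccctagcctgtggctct

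Another group of called genes is known to respond to glucocorticoids. Of 14 measured members of this list 3 rose (0.669% of genes above background were called higher, and 0.434% of all genes), none fell, and the median was -0.13. Tsc22d3, which encodes the glucocorticoid-induced leucine zipper, was 9.93, 10.07 and 10.23 on day 2 and 7.91, 8.96 and 7.93 on day 0 (log2 fold change 1.81, SE 0.28, adjusted p = 0.0287), and a second probe set was called as well (adjusted p = 0.014). Ddit4, an inhibitor of mTORC1, was 10.09, 10.21 and 10.17 on day 2 and 8.76, 8.98 and 8.55 on day 0 (1.39, SE 0.17, adjusted p = 0.0142). Klf9, a transcription factor, was 13.36, 13.57 and 13.51 on day 2 and 12.74, 12.88 and 12.54 on day 0 (0.76, SE 0.13, adjusted p = 0.0365). When 1 of the 6 samples was left out in turn, the calls of Tsc22d3 (its first probe set) and Klf9 held in 1 run each. That of Ddit4 held in all 6. Other members had the opposite sign. Fkbp5, a co-chaperone of the glucocorticoid receptor, had -0.39 with overlap (adjusted p = 0.742), and the metabolic kinase Pdk4 was 5.96, 6.10 and 5.55 on day 2 and 9.17, 7.33 and 9.78 on day 0 (-2.89, SE 0.90, adjusted p = 0.24). The members of the list thus did not move together. Steroid levels were not analysed here.

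Several genes of B cells and lymphoid follicles were higher on day 2. Ms4a1 (CD20, a surface protein of B cells) was 6.99, 6.32 and 6.62 on day 2 and 3.75, 4.03 and 4.02 on day 0 (log2 fold change 2.71, SE 0.43, adjusted p = 0.0287). A second probe set of Ms4a1 was 6.17, 6.34 and 5.79 on day 2, against background on day 0 (1.79, 1.78 and 1.82), and was at least 6.07-fold higher (adjusted p = 0.00651). Cd79b, a chain of the B cell receptor complex, was 6.47, 6.44 and 6.27 on day 2 and 3.50, 4.50 and 3.32 on day 0 (2.62, SE 0.48, adjusted p = 0.0452). Of 18 measured B cell genes these 2 rose and none fell (0.669% of genes above background were called higher, and 0.434% of all genes). Of the 18, 8 were at background in both groups, among them Cd79a and Pax5. Of the 10 above background 5 lay higher without overlap, against 14.5% of genes.
Of 15 measured follicle genes 2 rose and none fell (0.669% of genes above background were called higher, and 0.434% of all genes). Of the 11 above background 9 lay higher without overlap, against 14.5% of genes. Cxcl13 was 9.78, 9.21 and 9.44 on day 2 and 6.73, 6.51 and 6.90 on day 0 (2.76, SE 0.44, adjusted p = 0.0287). Tnfrsf13c, the receptor for the B cell survival factor Tnfsf13b (BAFF), was 5.42, 5.89 and 5.22 on day 2 and 4.60, 4.71 and 4.73 on day 0 (0.83, SE 0.14, adjusted p = 0.0348). Tnfsf13b, outside this list, was called too (7.02, 7.09 and 7.04 on day 2 and 5.77, 5.77 and 4.87 on day 0, adjusted p = 0.0287). So was Glycam1, a ligand of L-selectin made by the high endothelial venules of lymphoid tissue, at 6.32, 4.96 and 4.44 on day 2 and at background on day 0 (2.89, 2.88 and 2.95, at least 3.34-fold higher, adjusted p = 0.0201), and H2-Ob, a B cell gene of antigen presentation, at 5.39, 4.25 and 4.49 on day 2 and at background on day 0 (at least 2.32-fold higher, adjusted p = 0.0456). Tnfsf13b, Glycam1 and H2-Ob were picked with their values known.

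The calls of Ms4a1 (the probe set of the list), Cd79b, Cxcl13 and Tnfrsf13c ended when most or all of the single samples of the 2 days were left out in turn, and with the Hox score as a covariate, where their log2 fold changes were 1.85, 1.33, 2.41 and 0.84. The median of the follicle list was 0.83, and 0.31 with that covariate. In Ms4a1 and Cxcl13 day 0 replicate 2 did not lie apart from the other day 0 samples, and in Cd79b it was the highest of them. The number of follicles in a piece of colon was not measured in these files, and its part in the result was not tested.

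**Figure D3:**
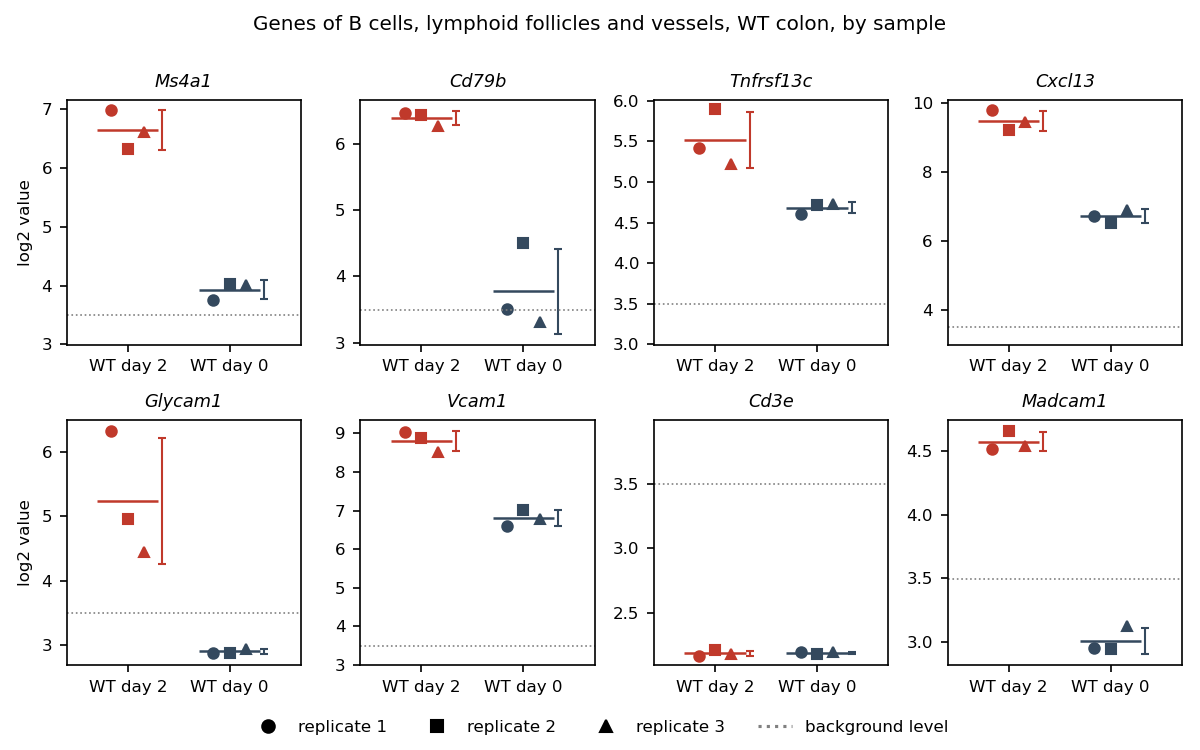
Log2 value (vertical axis, own scale in each panel) of 8 genes of B cells, follicles, vessels and T cells (Cd3e) in the 3 WT day 2 samples (red, left) and the 3 WT day 0 samples (blue, right). Symbols, lines and bars stand for replicates, means and 1 SD, and the dotted line is background (3.50). Ms4a1 lies at 6.32 to 6.99 on day 2 and at 3.75 to 4.03 on day 0, and Cd3e is at background in all 6 samples.

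Other leukocyte genes passed the test rarely. None of 18 T cell genes was called, their median was -0.02, and 13 of them were at background in both groups, Cd3e included (2.16, 2.21 and 2.18 on day 2 and 2.19, 2.18 and 2.19 on day 0). None of 13 neutrophil genes was called, and only 1 was above background. Of 20 macrophage genes above background 11 lay higher on day 2 without overlap (14.5% of genes) and none was called. Their median was 0.66 over all 21, and 0.20 with the Hox score as a covariate. Lyz2, the lysozyme of myeloid cells, was 12.64, 11.86 and 11.70 on day 2 and 10.84, 10.98 and 10.83 on day 0 (log2 fold change 1.18, adjusted p = 0.178), and Cybb, a subunit of the phagocyte oxidase, had 1.25 (adjusted p = 0.157). MHC class II genes had a median of 1.06 and 5 of 6 above background lay higher without overlap (14.5% of genes), and the median was 0.61 without WT day 2 replicate 1. H2-Aa was 14.09, 12.56 and 12.19 on day 2 and 11.98, 11.74 and 11.16 on day 0 (1.32, adjusted p = 0.212), with day 2 replicate 1 far above the rest. None of the 7 was called with the probe set of the list, and another probe set of H2-DMb2 was.
Of 12 adhesion genes 1 rose (0.669% of genes above background were called higher, and 0.434% of all genes). Of the 9 above background 5 lay higher without overlap, against 14.5% of genes. Vcam1, which holds leukocytes to vessels, was 9.03, 8.88 and 8.51 on day 2 and 6.60, 7.03 and 6.79 on day 0 (2.00, SE 0.29, adjusted p = 0.0214), and 1 of its 2 other probe sets was called as well. The call of Vcam1 held in 2 of the 6 runs in which 1 of these samples was left out. It was lost with the Hox score as a covariate (log2 fold change 1.37). Icam1, Itgb2 and Madcam1 lay higher without overlap and were not called (adjusted p = 0.296, 0.292 and 0.301). Itgav did not rise (log2 fold change -0.03, with overlap, adjusted p = 0.983), the only negative one of those above background. Among 21 cytokine genes none was called. Il6 was at background (2.12, 2.15 and 2.13 on day 2 and 2.15, 2.13 and 2.17 on day 0), and Il1b was 4.50, 4.35 and 4.93 on day 2 and 3.77, 3.55 and 2.24 on day 0 (adjusted p = 0.644). Pparg, the gene deleted in T cells of CD4cre mice, was 9.21, 9.18 and 9.79 on day 2 and 10.74, 9.97 and 11.21 on day 0 (-1.24, SE 0.53, adjusted p = 0.47).

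Large differences in Hox genes stood beside the largest rise, that of Atp12a, in the same samples. Hoxb13, expressed toward the rectum, was 11.16, 11.54 and 11.08 on day 2 and 2.98, 7.47 and 3.15 on day 0 (log2 fold change 6.73, SE 1.97, adjusted p = 0.2). Hoxd13 was 6.37, 7.60 and 3.92 on day 2 and at background on day 0. Hoxa9 was 10.43, 10.46 and 10.86 on day 2 and 7.18, 10.86 and 6.90 on day 0. In Hoxb6 and Hoxd10, both low on day 2 (3.39 to 3.69 and 2.37 to 2.59), day 0 replicate 2 was also low (3.71 and 2.37), while the other day 0 samples were at 7.88 and 7.84 for Hoxb6 and at 7.41 and 6.81 for Hoxd10. Of 17 Hox genes above background none was called. Their log2 fold changes ranged from -3.08 to 6.73 in groups 9 to 13 (9 genes) and from -2.95 to 1.51 in groups 1 to 8 (8 genes). Hoxb3, Hoxd8, Hoxb5, Hoxb9, Hoxd9 and Hoxb6 lay lower without overlap (14.2% of genes above background), and Hoxb13 and Hoxd13 higher (14.5%). Hoxa2, Hoxa3, Hoxa5, Hoxa7, Hoxa10, Hoxa11, Hoxa13, Hoxa9 and Hoxd10 overlapped.
Of 25 measured genes of ion and water transport 2 rose and none fell, with a median log2 fold change of 0.13. Among genes above background 0.669% were called higher, and among all genes 0.434%. Of the 23 above background 8 lay higher and 4 lower without overlap (14.5% and 14.2% of genes). Atp12a, the proton pump of the colon that takes up potassium, was 12.47, 12.35 and 11.12 on day 2 and 5.13, 5.34 and 5.07 on day 0 (log2 fold change 6.81, SE 1.19, adjusted p = 0.0376). Best2, a bicarbonate channel of goblet cells, was 7.36, 7.81 and 7.79 on day 2 and 3.70, 3.71 and 3.71 on day 0 (3.94, SE 0.64, adjusted p = 0.0293). In both, day 0 replicate 2 was as low as the other day 0 samples. Its Hox score (0.40) lay between those of the day 2 samples and of the other day 0 samples. The part of position along the colon in these rises was not tested. Of 15 measured genes of drug metabolism none was called and the median was -0.62. Of the 14 above background 2 lay higher and 4 lower without overlap (14.5% and 14.2% of genes). The median difference of these 14 was -0.05 against day 0 replicate 2 alone and -1.03 against the other day 0 samples. Outside that list, the cytochrome P450 gene Cyp2c68 was 11.49, 11.88 and 11.83 on day 2 and 7.51, 8.05 and 6.83 on day 0 (adjusted p = 0.0374). Cyp2f2, another P450, and AI854703 were at least 7.33-fold and 10.9-fold higher on day 2 than on day 0, when both were at background. Unc119 was 9.07, 9.15 and 8.75 on day 2 and 6.20, 7.47 and 5.75 on day 0 (2.51, adjusted p = 0.0444). The tight junction gene Cldn12 rose by 0.66 (adjusted p = 0.0287). With the Hox score as a covariate the log2 fold changes of Atp12a and Best2 were 3.41 and 2.21, and neither was called, nor was either when any 1 of the 6 samples was left out. Cyp2c68 and Cyp2f2 were called in none of these 6 runs, AI854703 in 2, and Unc119 and Cldn12 in 1 each. With the covariate Cyp2c68, Cyp2f2, AI854703, Unc119 and Cldn12 had 2.16, 2.87, 3.23, 1.11 and 0.56, and none was called.

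Some large differences did not pass the test. Reg3g, an antimicrobial lectin, was 2.95, 5.14 and 3.89 on day 2 and 11.27, 11.36 and 12.41 on day 0 (log2 fold change -7.69, SE 1.97, adjusted p = 0.127), and the related Reg3b was 5.94, 10.05 and 3.87 on day 2 and 14.16, 13.89 and 14.16 on day 0 (-7.45, SE 2.23, adjusted p = 0.212). The fit takes its spread from all 6 groups, and in the CD4cre day 0 samples Reg3b ranged from 3.40 to 14.24. Nts, the gut hormone neurotensin, had a mean at background on day 2 and was 11.24, 7.23 and 10.63 on day 0 (at least 73.6-fold lower, adjusted p = 0.241). Insl5, a hormone of the distal colon, was 11.50, 11.66 and 11.65 on day 2 and 3.89, 9.62 and 2.69 on day 0 (adjusted p = 0.336), with day 0 replicate 2 again nearest to day 2. Serpina3n and Pyy lay higher on day 2 without overlap (adjusted p = 0.186 and 0.188). Reg3b and Insl5 were named after their values were seen.

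**Figure D4:**
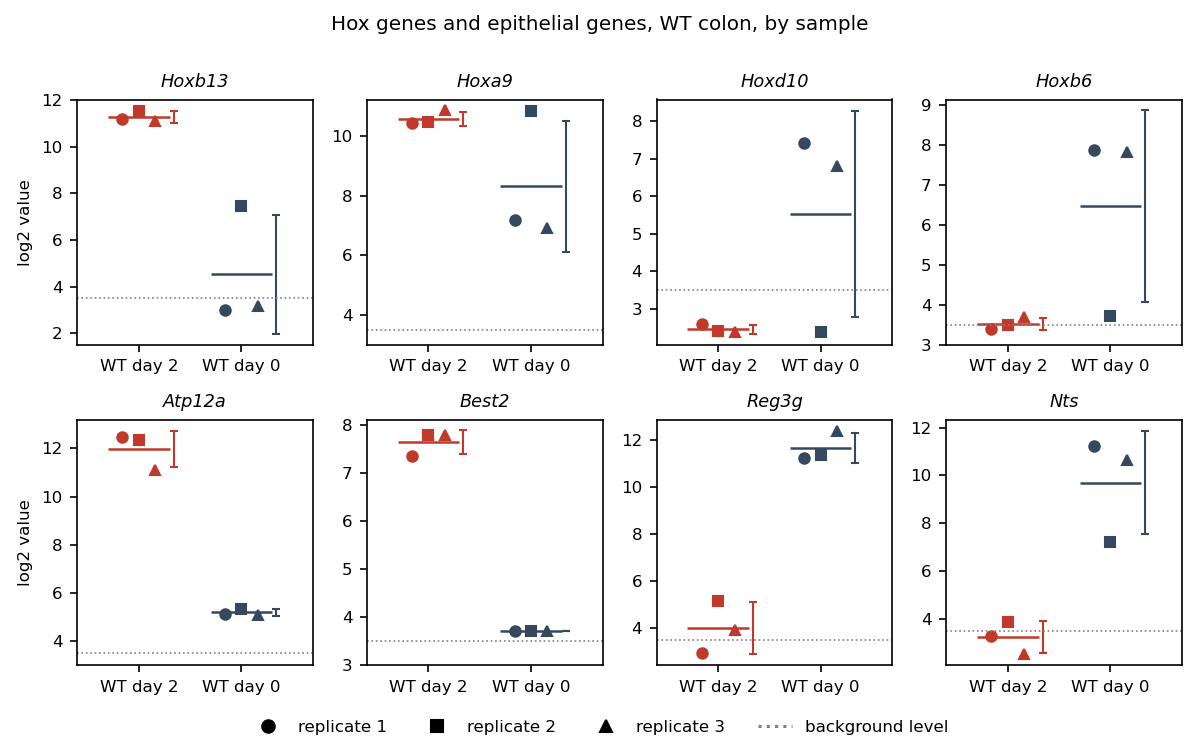
Log2 value (vertical axis, own scale in each panel) of 4 Hox genes (top) and 4 epithelial genes (bottom) in the 3 WT day 2 samples (red, left) and the 3 WT day 0 samples (blue, right). Symbols, lines and bars stand for replicates, means and 1 SD, and the dotted line is background (3.50). Day 0 replicate 2 (square) lies with day 2 for Hoxa9, Hoxd10 and Hoxb6, and with the other day 0 samples for Atp12a, Best2 and Reg3g. For Hoxb13 it lies between day 2 and the other day 0 samples.

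One of the smallest p-values belonged to a small change with close replicates. Hnrnph1, a splicing regulator, was 11.49, 11.49 and 11.52 on day 2 and 11.91, 11.80 and 11.88 on day 0 (fell by 0.37, SE 0.03, adjusted p = 0.00245), and its other probe set was not called (adjusted p = 0.719). Sfpq, another RNA-binding protein, read with a probe set that is not its brightest (the brightest had an adjusted p of 0.0691), was 10.66, 10.65 and 10.70 on day 2 and 11.26, 10.99 and 11.12 on day 0 (fell by 0.45, SE 0.09, adjusted p = 0.0497).

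The day 2 effect was then set beside that in CD4cre mice, whose day 2 and day 0 samples (3 each) are separate from those of WT mice. There 8 probe sets were called (0.0178%, with 2981 at an unadjusted p under 0.05), against 202 in WT mice, and 2 of them in both genotypes. The difference of the 2 effects was tested itself and was called for 1 probe set (0.00222%). So the larger number in WT mice does not show a larger effect for any named gene. The 202 probe sets called in WT mice, chosen on their WT values, had the same sign in CD4cre mice in 168 cases, with medians of 0.20 for those called higher and -0.49 for those called lower.
Per3 was called in both genotypes. In CD4cre mice it was 7.58, 7.11 and 6.10 on day 2 and 3.63, 4.71 and 3.68 on day 0 (log2 fold change 2.93, SE 0.35, adjusted p = 0.0229). Per2 was 8.88, 8.91 and 8.30 on day 2 and 7.61, 7.53 and 6.36 on day 0 in CD4cre mice (1.53, SE 0.32, adjusted p = 0.169), so that CD4cre and WT mice had similar levels on day 2 and WT mice the lower ones on day 0. The difference of the Per2 effects had an unadjusted p of 0.000519 and an adjusted p of 0.557. Sfpq fell in both genotypes, by 0.69 in CD4cre mice (SE 0.09, adjusted p = 0.0292).
In the mitosis list 43 of 43 members had a negative log2 fold change in CD4cre mice too, 32 of them without overlap (8.42% of genes above background), with a median of -0.91 and no call. The B cell and follicle lists both had a median of -0.02 in CD4cre mice. Ms4a1 was there 3.65, 3.77 and 4.14 on day 2 and 3.84, 3.81 and 3.79 on day 0. The log2 fold change of Tsc22d3 in CD4cre mice was -0.44 (8.95, 9.24 and 8.72 on day 2 and 9.38, 9.52 and 9.33 on day 0), and the difference from WT mice had an unadjusted p of 0.000109 (adjusted p = 0.408). Atp12a was 7.78, 6.33 and 5.57 on day 2 and 7.38, 6.38 and 5.56 on day 0 in CD4cre mice. Their Hox scores, 1.01, 0.49 and 0.09 on day 2 and 0.66, 0.24 and -1.22 on day 0, overlapped. On day 7, WT mice (2 samples) are set against the same 3 day 0 samples, so the values are not independent of those of day 2: the median of the mitosis list was -0.79, and Per2 and Vcam1 had log2 fold changes of 1.32 and 2.25.

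**Figure D5:**
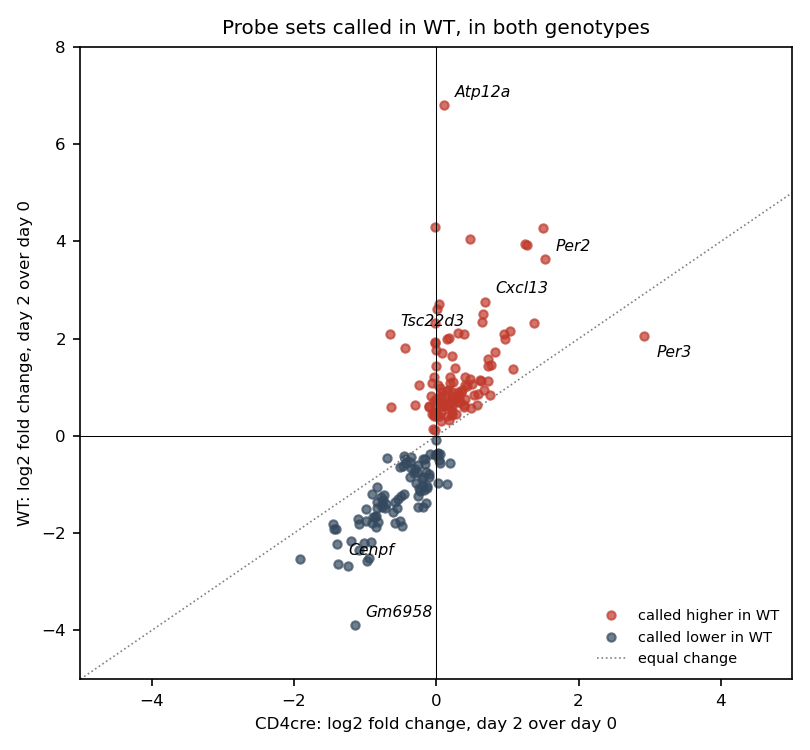
Log2 fold change of day 2 over day 0 in WT mice (vertical axis) against that in CD4cre mice (horizontal axis) for the 202 probe sets called in WT mice (113 higher, red, and 89 lower, blue). The dotted line marks equal change. Most points lie nearer to 0 in CD4cre mice, which the choice by WT values favours, and Per3 lies on the other side of the line.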

How the data were processed

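Colon RNA was measured on 17 Mouse 430 2.0 arrays (2 of WT day 7, otherwise 3 in each group). The deposited log2 values are the authors' gcRMA output (affy package, R 2.9.0): background adjustment by probe sequence, joint normalization, 1 summary value for each probe set. No genome build is stated for the arrays. The raw arrays were not analysed here.

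Of 45101 probe sets 64 are controls, and 45037 were tested without a filter. In the platform annotation 34945 carry 1 gene, 932 several and 9160 none, for 18193 genes. The model (limma 3.58.1, R 4.3.3) held 6 group means and all 17 samples. Variances were moderated by eBayes, with 11 degrees of freedom from residuals and 0.888 from the prior, and p-values were two-sided with Benjamini-Hochberg adjustment within each comparison. The code was tested on simulated data. Lists were read with the probe set of highest mean per gene, and 733 of 802 listed genes were matched. The background level came from 76 probe sets of 53 genes of other tissues. Where 1 group was at background, that level took the place of its mean and the fold is a lower bound. Alternatives were fits of fewer groups or samples, other normalizations, weights, a filter, a replicate block and the Hox score as a covariate. Leaving out WT day 2 replicate 2 and WT day 0 replicate 2 together was chosen after seeing the data, as were the counts of list members under each setting. A left-out sample leaves 2 in its group.

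The members and lists were chosen with earlier results of these data known. Genes were named as the 10 largest called rises and falls without overlap, up to 5 called members per list or else 2 with the smallest p, all clock genes and Hox genes above background, adhesion and cytokine genes that the study discusses, genes called in both genotypes, and the 5 smallest p-values. Members of marker lists at background are given as counts.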

Additional observations from a re-analysis of the deposited data

Results flagged for a closer look

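For 1 probe set, which carries no gene name in the annotation, the day 2 effect differed between the genotypes (difference -1.11 on the log2 scale, WT minus CD4cre, limma adjusted p = 0.0369). It was 4.71, 4.73 and 4.71 in WT day 2 samples and 4.73, 4.72 and 4.80 in WT day 0 samples. In CD4cre mice it was 5.71, 5.81 and 5.91 on day 2 and 4.74, 4.73 and 4.75 on day 0. It was the only call of that comparison, so the call for 1 of 45037 probe sets is given as a value.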

How the results depend on the processing

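The count of 202 in WT mice became 58 with only the groups compared, 8277 with array quality weights (which ranged from 0.207 to 16.56), 446 after a filter that kept 23144 probe sets, 5 with the Hox score, 69 without samples with pancreatic transcripts and 64 without both WT day 2 replicate 2 and WT day 0 replicate 2. It was 178, 171 and 203 with median centring, quantile normalization, and trend and robust moderation. The count of 8 in CD4cre mice became 1, 24, 4, 18 and 26 in the first settings up to the samples with pancreatic transcripts, and the count of 1 for the difference became 6, 34, 4, 0 and 9. The difference was also 0 with quantile normalization and with trend and robust moderation. Leaving out 1 of 17 samples gave 37 to 675 (the highest without CD4cre day 7 replicate 2), 4 to 104 and 0 to 12. With the replicate number as a block the counts were 134, 2 and 0. Same-numbered samples of WT day 2 and WT day 0 did not deviate together (correlations of 0.00, -0.04 and -0.08). Whether the numbers mark a batch or an order of processing was not tested.

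The Hox score difference was 1.81 to 2.57 with 1 sample left out and 0.49 over Hox genes above background in every sample. The 35 called probe sets that the rule for named genes picked kept their sign in every setting. Among genes followed through the settings, signs turned only in genes not called. Leaving out 1 sample, or both of the samples named above, gave -0.11 to 0.13 for Clock, -0.023 to 0.0052 for Bhlhe41, -0.24 to 0.48 for Dbp, -0.28 to 0.31 for Nfil3, -0.63 to 0.066 for Hoxa2 and -0.38 to 0.23 for Hoxa11. Array weights gave 0.036 for Clock, 0.013 for Bhlhe41, -0.10 for Dbp, -0.021 for Nfil3 and 0.10 for Hoxa11. Bhlhe41 was 0.0037 with median centring and 0.0062 with quantile normalization, and Nfil3 was -0.28 without samples with pancreatic transcripts. With the Hox score Nfil3 was -0.81, Csnk1e -0.019, Nts 0.078, Il1b -0.18, Pparg 0.46 and Insl5 -1.19. The causes were not tested.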
